A study of Mus musculus with 46 samples.

Results

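Sox8, Sox10 and 8 other Sox genes were followed in the gonads of mouse embryos at E12.5 with altered copies of Enh13, a distant Sox9 enhancer. They were taken by name from the 33331 gene rows of the deposited tables: Sox8 and Sox10 of the SoxE group, Sox4, Sox11 and Sox12 of the SoxC group, Sox13 of the SoxD group, Sox7, Sox17 and Sox18 of the SoxF group, and Sox2 of the SoxB1 group. All 10 members passed the filter on low counts in each comparison. Sox9, the other SoxE gene, is given as the reference.

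The data are poly(A) RNA sequencing of pairs of whole gonads in 46 libraries from 12 groups. Wild-type XX and wild-type XY gonads had n = 3 each. Heterozygotes of a 1 bp insertion (1bp-ins-het) and of a 3 bp deletion (3bp-del-het) had n = 3 in each sex, and the homozygotes of these alleles (1bp-ins-hom, 3bp-del-hom) n = 5 in each sex. A further genotype labelled 3bp-12bp-del-hom had n = 5 in XX and n = 3 in XY, and the labels do not say whether it joins both deletions on 1 allele. The labels name no agent for any group, and the strain is not given in the sources used here. No label ties a replicate to its own embryo or litter, so the p-values measure the spread between these libraries, which may be technical.

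Sox proteins bind DNA through an HMG box like that of SRY, the testis-determining factor. In the XY gonad SRY switches on Sox9, and SOX9 directs supporting cells to become Sertoli cells; in the XX gonad Sox9 stays low and these cells become pregranulosa cells. Sox8 and Sox10 encode the closest relatives of SOX9 and are transcribed in mouse Sertoli cells, but Sox10 is also a defining gene of neural crest and glia, SoxF genes mark endothelium, and Sox2 marks pluripotent cells and early germ cells.

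The libraries held 29909111 to 46150400 estimated counts. Levels of 1 gene are given in CPM (counts relative to library size), and levels of different genes in TPM (transcript abundance corrected for length). The somatic gonad factors Nr5a1, Wt1 and Gata4 had at least 182, 279 and 242 CPM in every library. A gonad library cannot tell fewer cells of a type from less RNA per cell. Among the wild types, replicate 1 of XX had 334 CPM summed over 10 chromaffin and sympathetic genes, against 11.3 and 8.12 CPM in replicates 2 and 3. Replicate 3 of XY wild type had 312 CPM summed over mesonephros genes, with 91.4 CPM in the lowest library of its group. Most member results that rest on either library are given with and without it. Counts of called marker genes and summed SoxE levels are given only with both.

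The stretches just upstream of Sox8 and Sox4 are shown because both genes rose in all 3 groups of XX homozygotes. Sox8 rose from a low level by a large fold and Sox4 from a high level by a small one. Sox13 also rose in all 3 groups, but its upstream stretch is not shown. The stretches shown are RefSeq sequences (GRCm38.p6) and end 1 base before the more upstream of the RefSeq and GENCODE M21 transcript starts. RefSeq promoter windows were found for 6 of the 10 members: Sox8, Sox4, Sox11, Sox12, Sox13 and Sox2. Both are written 5′ to 3′ on the strand of the gene, and capitals mark the GC box GGGCGG on either strand.
Sox8, chr17:25570687-25570936, minus strand: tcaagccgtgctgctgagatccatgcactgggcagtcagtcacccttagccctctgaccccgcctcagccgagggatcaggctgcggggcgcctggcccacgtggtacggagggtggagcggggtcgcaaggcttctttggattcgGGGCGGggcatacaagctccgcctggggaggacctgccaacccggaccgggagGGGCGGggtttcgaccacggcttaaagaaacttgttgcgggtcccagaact
Sox4, chr13:28953714-28953949, minus strand: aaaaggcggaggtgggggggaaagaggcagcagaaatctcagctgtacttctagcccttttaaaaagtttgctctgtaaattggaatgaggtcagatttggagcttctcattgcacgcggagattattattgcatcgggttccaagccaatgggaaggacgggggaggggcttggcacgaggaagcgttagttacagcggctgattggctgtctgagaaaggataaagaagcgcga
Windows of 300 bases, from 250 bases before to 50 after the start, were searched. The Sox8, Sox11 and Sox2 windows held GGGCGG at 2 places each, the Sox12 window at 4, and the Sox4 and Sox13 windows at none. Of 32851 mouse promoter windows of this length, 35.7% held it. The SOX motif AACAAT, in 10.7% of all windows, and the NR5A1 motif AAGGTCA, in 4.72%, matched neither strand of the 6 windows. ACAAAG, a SOX and TCF motif in 18.7% of all windows, matched the Sox2 window and none of the other five. The GATA motif AGATAA, in 11.2% of all windows, matched none of the 6. The GC content was 66.3% for the Sox8 window and 52.0% for the Sox4 window, with a median of 52.7% over all windows.

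Sox8 separated XX from XY wild type and rose in every XX homozygous group. The gene lies on chr17:25565892-25570686 (mm10, minus strand), and its product acts beside SOX9 in maintaining mouse Sertoli cells. In XX wild type Sox8 was at 4.44, 1.84 and 1.58 CPM, and in XY wild type at 37.9, 34.0 and 16.6 CPM. The sexes did not overlap, although replicate 3 of XY wild type, the library with high mesonephros genes, was far below the other two. Sox8 was higher in XY by 3.46 ± 0.50 (log2 fold change ± SE; adjusted p = 0.00762, edgeR quasi-likelihood test with Benjamini-Hochberg adjustment over all genes, used for all adjusted p-values of members here). In this comparison 2 of the 10 members, Sox8 and Sox13, were called at an adjusted p under 0.05, where 11.0% of 15730 genes were called and 5.10% were called higher. Without replicate 1 of XX wild type 3 were called, and without replicate 3 of XY wild type 5, with Sox4 at 0.24 (adjusted p = 0.0105), Sox11 at 0.27 (adjusted p = 0.0189) and Sox18 at 0.49 (adjusted p = 0.00409) added. Sox8 was then at 4.09 and 3.74.

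In XX 1bp-ins-hom, Sox8 was at 12.7, 21.6, 28.8, 9.33 and 32.6 CPM. In XX 3bp-del-hom it was at 22.8, 15.7, 19.2, 12.1 and 11.8 CPM, and in XX 3bp-12bp-del-hom at 15.6, 17.8, 7.50, 26.3 and 24.7 CPM. All 15 of these libraries lay above all 9 XX libraries of wild type and heterozygotes, of which the highest had 4.44 CPM. The XX homozygotes also spread widely, with the highest 1bp-ins-hom library well above the lowest. Sox8 rose against XX wild type by 2.99 ± 0.56 in 1bp-ins-hom (adjusted p = 0.00644), 2.60 ± 0.40 in 3bp-del-hom (adjusted p = 0.00121) and 2.80 ± 0.54 in 3bp-12bp-del-hom (adjusted p = 0.0101). The same XX wild-type libraries serve all of these comparisons. Without replicate 1 of XX wild type, which had the highest Sox8 of its group, the values were 3.61, 3.22 and 3.43 (adjusted p = 0.0107, 0.000281 and 0.0117 by edgeR).

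**Figure D1:**
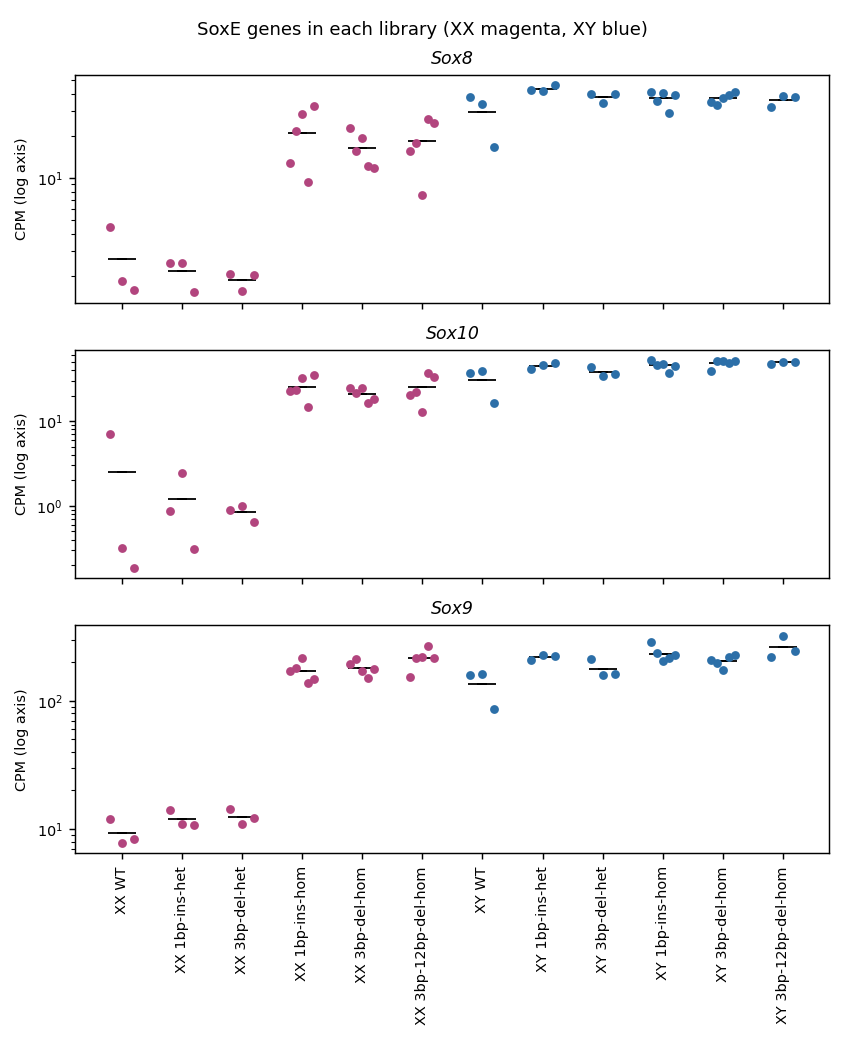
Sox8, Sox10 and Sox9 in each of the 46 libraries, in CPM on a log axis, by group; points are libraries (XX magenta, XY blue) and bars are group means. For Sox8 and Sox10, all 15 XX homozygous libraries lie above the 9 XX libraries of wild type and heterozygotes, and the XY mutant libraries span 29.2 to 46.5 CPM for Sox8 and 34.1 to 52.6 CPM for Sox10.

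Sox10, on chr15:79154908-79165240 (mm10, minus strand), was also higher in XX homozygotes than in the other XX groups, but its wild-type XX level rested on 1 library. In XX wild type Sox10 was at 7.08, 0.320 and 0.185 CPM, which are 276, 12 and 6 counts. Replicate 1, the library with high chromaffin genes, was far above both of the others. In XY wild type Sox10 was at 36.7, 39.6 and 16.3 CPM. XX 1bp-ins-hom had 22.8, 23.1, 32.6, 14.6 and 35.1 CPM. XX 3bp-del-hom had 24.8, 21.3, 24.8, 16.4 and 18.3 CPM, and XX 3bp-12bp-del-hom had 20.7, 22.0, 12.7, 37.2 and 32.9 CPM. Even the lowest of these, at 12.7 CPM, was above replicate 1 of XX wild type.

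Sox10 rose against XX wild type by 3.31 ± 1.01 in 1bp-ins-hom (adjusted p = 0.0407) and 3.00 ± 0.97 in 3bp-del-hom (adjusted p = 0.0429). In 3bp-12bp-del-hom the difference was 3.27 ± 1.10 and was not called (adjusted p = 0.0738), and between the wild-type sexes it was 3.56 ± 1.17 (adjusted p = 0.109). Without replicate 1 of XX wild type all of these differences were called in edgeR, at 6.62 (adjusted p = 0.00188), 6.31 (adjusted p = 4.05e-06), 6.59 (adjusted p = 0.00302) and 6.88 (adjusted p = 0.00443). These folds are against 12 and 6 counts. With that library kept, the 1bp-ins-hom and 3bp-del-hom calls were lost without the filter on low counts (adjusted p = 0.0860 and 0.0704 in edgeR). They were also lost on leaving out any 1 of the other libraries (adjusted p from 0.0533 to 0.0965 and from 0.0604 to 0.0865). In replicate 1 of XX wild type Dbh and Th, which encode catecholamine-synthesis enzymes, were at 79.9 and 36.5 CPM. Among the 10 neural crest and glia genes, Foxd3, an early neural crest factor, was at 1.03 CPM and at 0.11 and 0 CPM in replicates 2 and 3. The marker genes of that library were chosen after their values were seen. The part of these cells in the Sox10 level of replicate 1 was not tested.

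Few neural crest and glia genes were called beside Sox10 in the XX homozygotes. The summed level of their list was 280 to 284 CPM in XX wild type and 260 to 401 CPM in XX homozygotes, and the XY libraries had 339 to 479 CPM. Of its 10 genes, Ngfr, a neurotrophin receptor, rose in 1bp-ins-hom by 0.49, and 0 of the genes tested were called in 3bp-del-hom or 3bp-12bp-del-hom against XX wild type. Of all genes 32.3%, 44.8% and 25.6% were called in 1bp-ins-hom, 3bp-del-hom and 3bp-12bp-del-hom. Replicate 1 of XX wild type is part of these comparisons. After group means were removed, it was 1 of the 2 libraries most extreme in the mean of this list. The list genes were not tested without it. Foxd3 averaged 0.1 to 0.2 CPM in the XX homozygous groups. Against heterozygotes, Erbb3, a neuregulin receptor, rose by 1.75 in 1bp-ins-hom and 1.15 in 3bp-del-hom. Between XX and XY 3bp-del-hom, 5 of 9 tested were lower in XX, among them S100b at -2.12, Cdh19 at -2.04 and Erbb3 at -1.59. In this comparison 31.8% of all genes were called in either direction, and the share called lower alone is not given here.

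**Figure D2:**
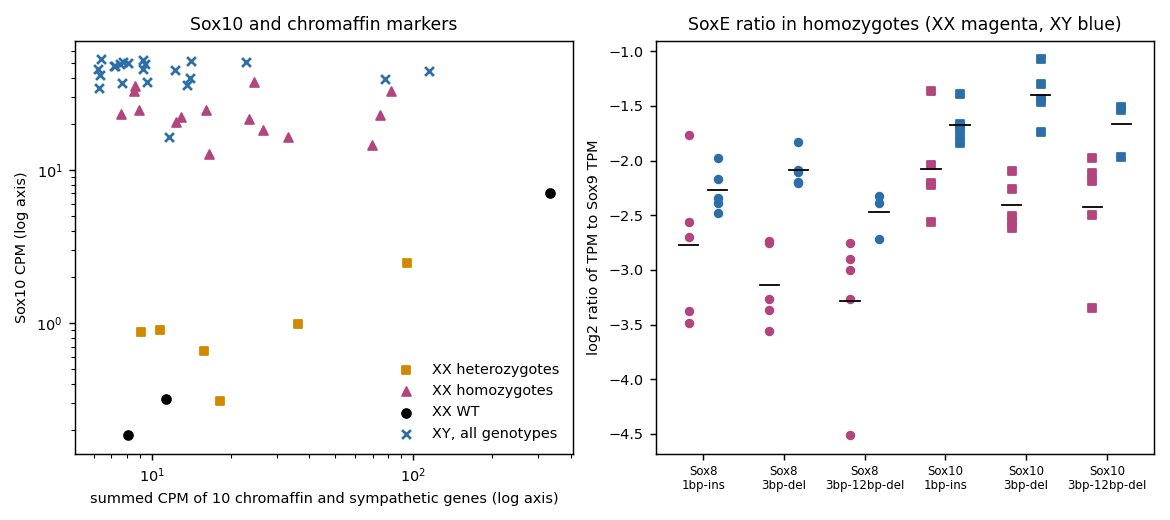
Left, Sox10 in CPM against the summed CPM of 10 chromaffin and sympathetic genes in all 46 libraries, both on log axes; replicate 1 of XX wild type lies to the far right, at 7.08 and 334 CPM. Right, log2 ratio of Sox8 (circles) or Sox10 (squares) to Sox9, both in TPM, in XX (magenta) and XY (blue) homozygotes, with bars at group means; the 3bp-del-hom groups do not overlap for either gene.

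No difference in Sox8 or Sox10 was called between XX heterozygotes and XX wild type. In XX heterozygotes Sox8 was at 1.52 to 2.48 CPM and Sox10 at 0.309 to 2.45 CPM, all within or below the wild-type range. The differences from XX wild type were -0.30 ± 0.42 (Sox8) and -1.08 ± 1.51 (Sox10) in 1bp-ins-het, and -0.51 ± 0.40 and -1.62 ± 1.36 in 3bp-del-het. Without replicate 1 of XX wild type the Sox10 differences turned to 2.23 and 1.69 and were not called (adjusted p = 0.673 and 0.0685). In edgeR 0 of the 10 members were called in either heterozygote, where 0% of 15694 genes (1bp-ins-het) and 10.9% of 15742 genes (3bp-del-het) were. At an unadjusted p under 0.05 the counts over all genes were 1251 and 4313, and DESeq2 called 83 and 2657 genes.

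Homozygotes compared with heterozygotes of the same allele gave the SoxE rise against control groups that do not hold replicate 1 of XX wild type. Replicate 2 of 1bp-ins-het had 94.5 CPM summed over the chromaffin and sympathetic genes, against 9.10 and 18.3 CPM in replicates 1 and 3, and the highest Sox10 of its group, at 2.45 CPM against 0.873 and 0.309 CPM. The homozygotes held reads of these genes too, with sums of 7.63 to 82.5 CPM in 1bp-ins-hom and 8.94 to 33.1 CPM in 3bp-del-hom. In 3bp-del-het the sums were 10.7 to 36.3 CPM. The part of such cells in the Sox10 levels of any of these groups was not tested. Sox8 rose by 3.28 ± 0.50 in 1bp-ins-hom (adjusted p = 0.00716) and 3.12 ± 0.26 in 3bp-del-hom (adjusted p = 6.60e-05). Sox10 rose by 4.38 ± 0.61 (adjusted p = 0.00604) and 4.65 ± 0.21 (adjusted p = 6.80e-07). Without replicate 2 of 1bp-ins-het the insertion gave 5.45 for Sox10 (adjusted p = 0.0133) and 3.40 for Sox8 (adjusted p = 0.0415) by edgeR. The members called were 3 of 10 for the insertion, where 17.3% of all genes were called and 8.49% called higher, and 7 of 10 for the deletion, where 27.1% were called and 14.0% higher. All were higher in homozygotes.

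In XY gonads the SoxE genes were already high and no member was called in any mutant group against XY wild type. Sox8 was at 29.2 to 46.5 CPM and Sox10 at 34.1 to 52.6 CPM over the 19 XY mutant libraries. By group, Sox8 was at 43.6 ± 2.50 CPM (SD, n = 3) in 1bp-ins-het, 38.0 ± 3.27 CPM (SD, n = 3) in 3bp-del-het, 37.2 ± 4.99 CPM (SD, n = 5) in 1bp-ins-hom, 37.4 ± 3.16 CPM (SD, n = 5) in 3bp-del-hom and 36.3 ± 3.50 CPM (SD, n = 3) in 3bp-12bp-del-hom. In the same order Sox10 was at 45.4 ± 3.72 CPM (SD, n = 3), 38.1 ± 5.31 CPM (SD, n = 3), 45.6 ± 5.51 CPM (SD, n = 5), 48.6 ± 5.21 CPM (SD, n = 5) and 49.5 ± 1.65 CPM (SD, n = 3). Ordered by mean, neighbouring groups overlapped for both genes, except that the lowest Sox8 level in 1bp-ins-het, 41.9 CPM, was above the highest in 3bp-del-het, 39.9 CPM. Replicate 3 of XY wild type, at 16.6 and 16.3 CPM, was below all 19. The log2 fold changes were 0.30 to 0.56 for Sox8, 0.30 to 0.68 for Sox10 and 0.38 to 0.95 for Sox9. Without replicate 3 of XY wild type they ran from 0.02 to 0.28 for Sox8, 0.0025 to 0.37 for Sox10 and 0.14 to 0.70 for Sox9, and still 0 members were called. Over all genes edgeR called 0 to 2 genes per comparison, that is 0% or 0.0130%. At an unadjusted p under 0.05 there were 2232, 1722 and 1052 genes in 1bp-ins-hom, 3bp-del-hom and 3bp-12bp-del-hom and 943 and 740 in 1bp-ins-het and 3bp-del-het, and DESeq2 called 123, 183, 136, 28 and 22 in that order.

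The effect of the mutation on Sox8 differed between the sexes by interaction tests in 2 of 3 genotypes. The XX effect exceeded the XY effect by 2.65 ± 0.59 in 1bp-ins-hom (adjusted p = 0.0462) and 2.28 ± 0.46 in 3bp-del-hom (adjusted p = 0.0155). In 3bp-12bp-del-hom it was 2.50 ± 0.62 (adjusted p = 0.106). For Sox10 the interaction was 2.74 ± 0.92, 2.36 ± 0.90 and 2.60 ± 1.04 and was not called (adjusted p = 0.236, 0.141 and 0.295 in edgeR). Without replicate 1 of XX wild type it was called in all 3, at 6.06, 5.68 and 5.92 (adjusted p = 0.000861, 0.000167 and 0.0176). Members called were 1, 3 and 0 of 10 in 1bp-ins-hom, 3bp-del-hom and 3bp-12bp-del-hom, where 1.04%, 3.83% and 0.597% of all genes were called. All were larger in XX, a direction called for 0.834% of all genes in 1bp-ins-hom and 2.07% in 3bp-del-hom. The 0 is an edgeR count, beside 2221 genes at an unadjusted p under 0.05 and 3 members called by DESeq2. The 1bp-ins-hom call of Sox8 was lost without the filter (adjusted p = 0.0925) and on leaving out any 1 of 12 libraries: each of the XY homozygotes, replicates 2, 3 and 5 of the XX homozygotes, replicates 2 and 3 of XX wild type, or replicates 1 and 2 of XY wild type (adjusted p from 0.0557 to 0.179). In 3bp-del-hom, 3 libraries each ended the call when left out, namely XX wild-type replicates 2 and 3 and XY wild-type replicate 2 (adjusted p from 0.0527 to 0.0576). Without replicate 3 of XY wild type Sox8 was called in all 3, at 2.94, 2.56 and 2.78 (adjusted p = 0.0104, 0.00180 and 0.0160), and 2, 4 and 3 members were called.

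Between XX and XY homozygotes of the same genotype, a comparison added after the data were seen, Sox8 was lower in XX 3bp-del-hom and Sox10 in XX 1bp-ins-hom and 3bp-del-hom. Sox8 differed by -0.81 ± 0.31 in 1bp-ins-hom (adjusted p = 0.137), -1.18 ± 0.17 in 3bp-del-hom (adjusted p = 0.000357) and -0.98 ± 0.36 in 3bp-12bp-del-hom (adjusted p = 0.137). Sox10 differed by -0.82 ± 0.21 (adjusted p = 0.0340), -1.19 ± 0.12 (adjusted p = 2.33e-05) and -0.98 ± 0.31 (adjusted p = 0.0955). Sox9 differed by -0.43 ± 0.12, -0.17 ± 0.09 and -0.28 ± 0.18, of which only the first was called (adjusted p = 0.0492, 0.189 and 0.370 in edgeR). In 3bp-del-hom the sexes did not overlap for Sox8, at 22.8, 15.7, 19.2, 12.1 and 11.8 CPM in XX and 35.3, 33.3, 37.7, 39.3 and 41.2 CPM in XY, or for Sox10, at 24.8, 21.3, 24.8, 16.4 and 18.3 and 39.4, 51.0, 51.4, 49.4 and 51.8 CPM. The members called were 4 of 10 in 1bp-ins-hom, where 9.94% of all genes were called and 3.54% called lower, 8 of 10 in 3bp-del-hom, where 31.8% were, and 0 of 10 in 3bp-12bp-del-hom, where 10.4% were. In the last edgeR had 3991 genes at an unadjusted p under 0.05 and DESeq2 called 3 members. The 1bp-ins-hom calls were of Sox10, Sox13, Sox7 and Sox18. Those of Sox10, Sox13 and Sox18 were lost in 6, 8 and 7 of the 10 fits that left out 1 library (highest adjusted p = 0.0909, 0.0919 and 0.115), and that of Sox9 in 9.

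Per length, Sox9 took on average more of the SoxE transcripts in XX than in XY homozygotes, and Sox8 and Sox10 less, a measure added after the data were seen. The summed TPM of Sox8, Sox9 and Sox10 was 6.93 ± 4.51 (SD, n = 3) in XX wild type, 83.3 ± 17.4 in XX 1bp-ins-hom, 80.6 ± 10.6 in XX 3bp-del-hom and 107 ± 19.8 in XX 3bp-12bp-del-hom (SD, n = 5 each), and 81.9 ± 21.8 (SD, n = 3) in XY wild type. Single libraries ran from 4.28 to 12.1 TPM in XX wild type and from 56.9 to 96.0 TPM in XY wild type. These include replicate 1 of XX and replicate 3 of XY wild type. In XX 3bp-del-hom 8.88 ± 1.91% of the summed TPM was Sox8, 76.6 ± 3.47% Sox9 and 14.5 ± 1.64% Sox10 (SD, n = 5). In XY 3bp-del-hom the shares were 14.6 ± 0.931%, 61.9 ± 3.19% and 23.5 ± 2.73% (SD, n = 5). The log2 ratio of Sox8 to Sox9 TPM was -3.13 ± 0.373 in XX and -2.08 ± 0.149 in XY 3bp-del-hom (SD, n = 5 each), a difference of -1.05 (exact 2-sided permutation test, p = 0.00794, the smallest that 252 splits allow; adjusted p = 0.0238 over 6 tests). For Sox10 it was -2.41 ± 0.224 against -1.40 ± 0.242 (SD, n = 5 each), a difference of -1.01 (exact permutation p = 0.00794, adjusted p = 0.0238).

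In the other genotypes these ratios were also lower in XX, but none of these tests passed an adjusted p of 0.05. For Sox8 the difference was -0.51 in 1bp-ins-hom (exact permutation p = 0.175, adjusted p = 0.175) and -0.81 in 3bp-12bp-del-hom (exact permutation p = 0.0893, adjusted p = 0.124). For Sox10 it was -0.41 (exact permutation p = 0.103, adjusted p = 0.124) and -0.76 (exact permutation p = 0.0536, adjusted p = 0.107). With 5 against 3 libraries the smallest p is 0.0179. Most listed Sertoli genes were also lower in XX than in XY 3bp-del-hom, a comparison in which 31.8% of all genes were called. Of 22 tested, 14 were lower and 2 higher in XX than in XY 3bp-del-hom, led by the steroid enzyme gene Hsd17b1 at -4.47, Amh (anti-Müllerian hormone) at -3.75 and Ptgds (prostaglandin D2 synthase) at -2.66. Their part in the ratio was not tested.

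Within groups, libraries with more Sox8 had more Sox10. Over all 46 libraries, after group means were removed, Sox10 and Sox8 (log2 CPM) had a Pearson r of 0.74 and a Spearman rho of 0.82 (permutation p = 1e-05 for r, the smallest that 100000 shuffles give; adjusted p = 4.5e-05 over 9 relations), and r was 0.74 without the 2 most extreme libraries. Sox8 and Sox9 had r = 0.54 and rho = 0.59 (permutation test, adjusted p = 0.0089 for r), with 0.51 without the 2. Sox10 and Sox9 had r = 0.47 and rho = 0.50 (permutation test, adjusted p = 0.0150), with 0.46 without the 2. Over the 15 XX homozygotes alone, neither relation with Sox9 passed. There r was 0.38 for Sox8 and 0.45 for Sox10 (permutation test, adjusted p = 0.231 and 0.182). Sox10 and Sox8 had r = 0.95 in these libraries (permutation test, adjusted p = 9e-05). Sox10 and the mean of the neural crest and glia list had r = 0.75 and rho = 0.55 (permutation test, adjusted p = 0.000684), and r was 0.61 without the 2 most extreme libraries, replicate 1 of XX wild type and replicate 2 of XX 1bp-ins-het. Genes of 1 library share its dissection and depth. Among the 12 group means (log2 CPM), Sox8 was most like Tpm1 (r = 0.997), Gdnf (r = 0.997) and Diras2 (r = 0.996), and Sox10 was most like Cxxc5 (r = 0.996), Mmd2 (r = 0.994) and Cst9 (r = 0.994).

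**Figure D3:**
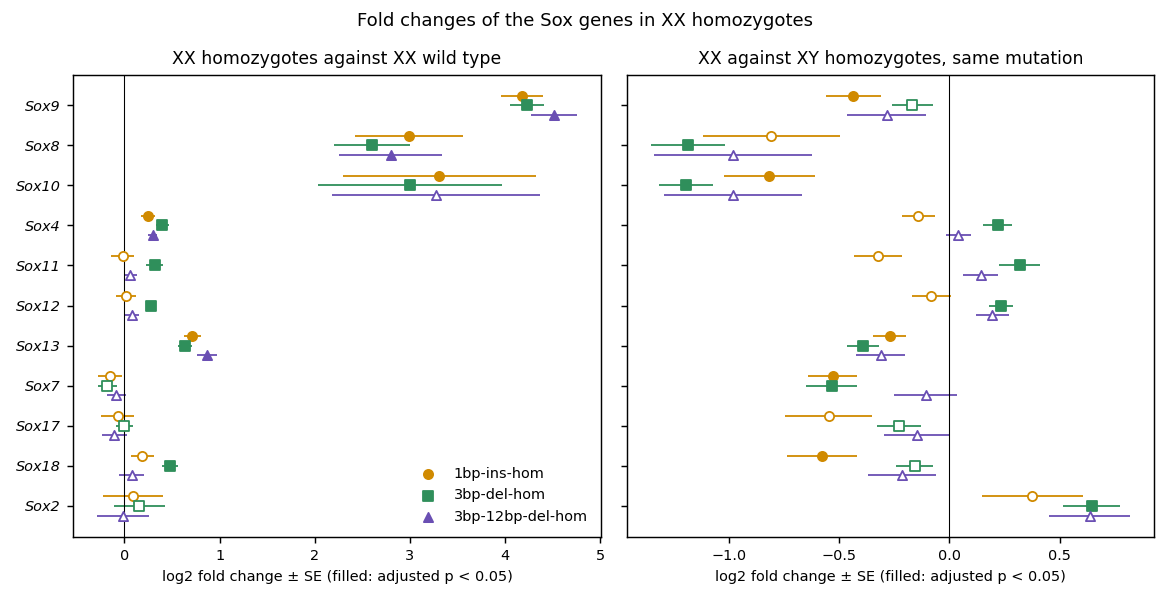
Log2 fold changes ± SE (edgeR) of Sox9 and the 10 members in XX homozygotes, against XX wild type (left) and against XY homozygotes of the same genotype (right); colours are genotypes and filled points passed an adjusted p under 0.05. Sox8, Sox10, Sox4 and Sox13 lie to the right of 0 on the left, and Sox8, Sox10 and Sox13 lie to the left of 0 on the right.

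The SoxC genes, which encode activators that are widely transcribed in progenitors and young neurons, changed by small folds, and Sox4 and Sox12 were the most abundant of the 10 members. Over the 46 libraries the median was 131 TPM for Sox4, 75.5 TPM for Sox12 and 27.1 TPM for Sox11, beside 63.9 TPM for Sox9, 51.4 TPM for Sox13, 35.8 TPM for Sox18, 19.1 TPM for Sox10 and 12.545 TPM for Sox8. Sox4 (chr13:28948919-28953713) and Sox11 (chr12:27334264-27342574) are genes of 1 exon and Sox12 (chr2:152393611-152398063) of up to 2, all on the minus strand. Sox4 was at 353, 360.0 and 374 CPM in XX wild type. In XX homozygotes it was at 408, 434, 431, 491 and 389 CPM (1bp-ins-hom), 456, 474, 459, 556 and 488 CPM (3bp-del-hom) and 419.6, 459, 449, 455 and 443 CPM (3bp-12bp-del-hom). All 15 were above the 3 wild-type libraries, by small margins. Sox4 rose by 0.24 ± 0.08 (adjusted p = 0.0347), 0.40 ± 0.07 (adjusted p = 0.00115) and 0.30 ± 0.05 (adjusted p = 0.00284) in these groups. The 1bp-ins-hom call was lost without any 1 of the XX wild-type libraries or replicate 2 or 3 of the homozygotes, with adjusted p from 0.0686 to 0.108.

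Sox11 and Sox12 passed the test against XX wild type in 3bp-del-hom alone. Sox11 was at 152, 141 and 134 CPM in XX wild type and at 170.3, 177, 165, 217 and 175 CPM in XX 3bp-del-hom, without overlap, with replicate 4 the highest. It rose by 0.32 ± 0.09 (adjusted p = 0.0155), and its differences were -0.02 ± 0.12 in 1bp-ins-hom and 0.06 ± 0.07 in 3bp-12bp-del-hom. Sox12 was at 208, 212 and 232 CPM and 269, 270.5, 278, 257 and 269.8 CPM, also without overlap, and rose by 0.28 ± 0.05 (adjusted p = 0.00134), with 0.01 ± 0.10 and 0.08 ± 0.07 in the other two. Whether these effects differ between the XX genotypes was not tested. The Sox11 call was lost without replicate 2 (adjusted p = 0.0562) or replicate 3 (adjusted p = 0.0663) of XX wild type.

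Fold changes also ran with transcript length in these comparisons, and the SoxC genes have long transcripts. Spearman's rho across genes between length and log2 fold change was -0.39, -0.47 and -0.22 in 1bp-ins-hom, 3bp-del-hom and 3bp-12bp-del-hom against XX wild type (genes are not replicates). Over the 22 comparisons rho ran from -0.51 to 0.07. Sox11 stood at the 98.1 percentile of length and Sox4 at the 87.0. Sox18, also called in XX 3bp-del-hom, has a short transcript, at the 27.5 percentile. With this trend removed, an alternative added after the data were seen, Sox11 in 1bp-ins-hom went from -0.02 to 0.43 (adjusted p = 0.0491 in edgeR).

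The SoxC interaction with sex passed in 3bp-del-hom, at 0.57 ± 0.12 for Sox4 (adjusted p = 0.0157) and 0.67 ± 0.15 for Sox11 (adjusted p = 0.0246). Without replicate 2 of XX wild type both calls were lost (adjusted p = 0.0503 for Sox4), and without replicate 3 that of Sox11 (adjusted p from 0.0692 to 0.0757). In XY, Sox11 was at 174, 173 and 207 CPM in wild type and 138, 128, 135, 158 and 172 CPM in 3bp-del-hom, and Sox4 at 421, 446 and 534 and 395, 413, 401, 448 and 448 CPM. The XY mutants were lower on average than XY wild type, with overlap in Sox4 and none in Sox11. Replicate 3 of XY wild type was the highest of its group for both genes. Without that library the interaction also passed in 3bp-12bp-del-hom, at 0.30 for Sox4 (adjusted p = 0.0222) and 0.43 for Sox11 (adjusted p = 0.0218 in edgeR). Against XY 3bp-del-hom, XX 3bp-del-hom was higher in all 3 SoxC genes, by 0.22 ± 0.07 for Sox4 (adjusted p = 0.0231), 0.32 ± 0.09 for Sox11 (adjusted p = 0.0223) and 0.24 ± 0.05 for Sox12 (adjusted p = 0.00642). Leaving out replicate 2 or 3 of the XY group ended the Sox4 and Sox11 calls, and replicate 5 of the XX group that of Sox4 (adjusted p from 0.0533 to 0.0654). Sox11 and a list of 10 neuronal genes had r = 0.26 and rho = 0.29 over the 46 libraries (permutation test, adjusted p = 0.138 for r), with 0.39 without the 2 most extreme libraries. By group means Sox4 was most like Basp1 (r = 0.963), Sirt6 and Csnk1e (r = 0.956 each), Sox11 most like Kin (r = 0.894), Cyb5rl (r = 0.889) and Nr2f2 (r = 0.846), and Sox12 most like Ubald1 (r = 0.952), Cenpb (r = 0.938) and Inafm1 (r = 0.936).

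Sox13, a SoxD gene whose protein has a coiled coil and modulates transcription, rose in all 3 groups of XX homozygotes. It lies on chr1:133382303-133424377 (minus strand) and has up to 14 exons. XX wild type had 57.1, 58.1 and 57.5 CPM and XY wild type 96.7, 99.8 and 81.4 CPM, without overlap, and the sexes differed by 0.66 ± 0.10 (adjusted p = 0.00935). XX 1bp-ins-hom had 94.3, 97.2, 110.2, 79.1 and 92.6 CPM. XX 3bp-del-hom had 96.2, 100.1, 93.9, 83.2 and 82.5 CPM, and XX 3bp-12bp-del-hom 97.8, 94.5, 91.5, 123 and 119 CPM. All 15 lay above the 9 XX libraries of wild type and heterozygotes, which spanned 47.5 to 64.5 CPM. All but the lowest lay within the span of the 22 XY libraries, 81.4 to 144 CPM. The lower edge of that span is replicate 3 of XY wild type. The 19 XY mutant libraries spanned 88.0 to 144 CPM, and the XX homozygous libraries at 79.1, 82.5 and 83.2 CPM were below them. Sox13 rose by 0.71 ± 0.09 (adjusted p = 0.00127), 0.64 ± 0.07 (adjusted p = 0.000101) and 0.87 ± 0.10 (adjusted p = 0.000584). Against XY homozygotes its log2 fold change was -0.27 ± 0.07 in 1bp-ins-hom (adjusted p = 0.0413) and -0.39 ± 0.07 in 3bp-del-hom (adjusted p = 0.00173), and -0.31 ± 0.11 in 3bp-12bp-del-hom (adjusted p = 0.109). By group means it was most like Kif19a (r = 0.989), Maff (r = 0.987) and Dusp15 (r = 0.985). The wild-type sex call was lost without replicate 2 (adjusted p = 0.058) or 3 (adjusted p = 0.0512) of XX wild type. Without replicate 3 of XY wild type the sexes differed by 0.76 (adjusted p = 5.38e-05 in edgeR). The sex interaction of Sox13 was then called in 1bp-ins-hom, at 0.49 (adjusted p = 0.0199), and 3bp-del-hom, at 0.36 (adjusted p = 0.0369 in edgeR).

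**Figure D4:**
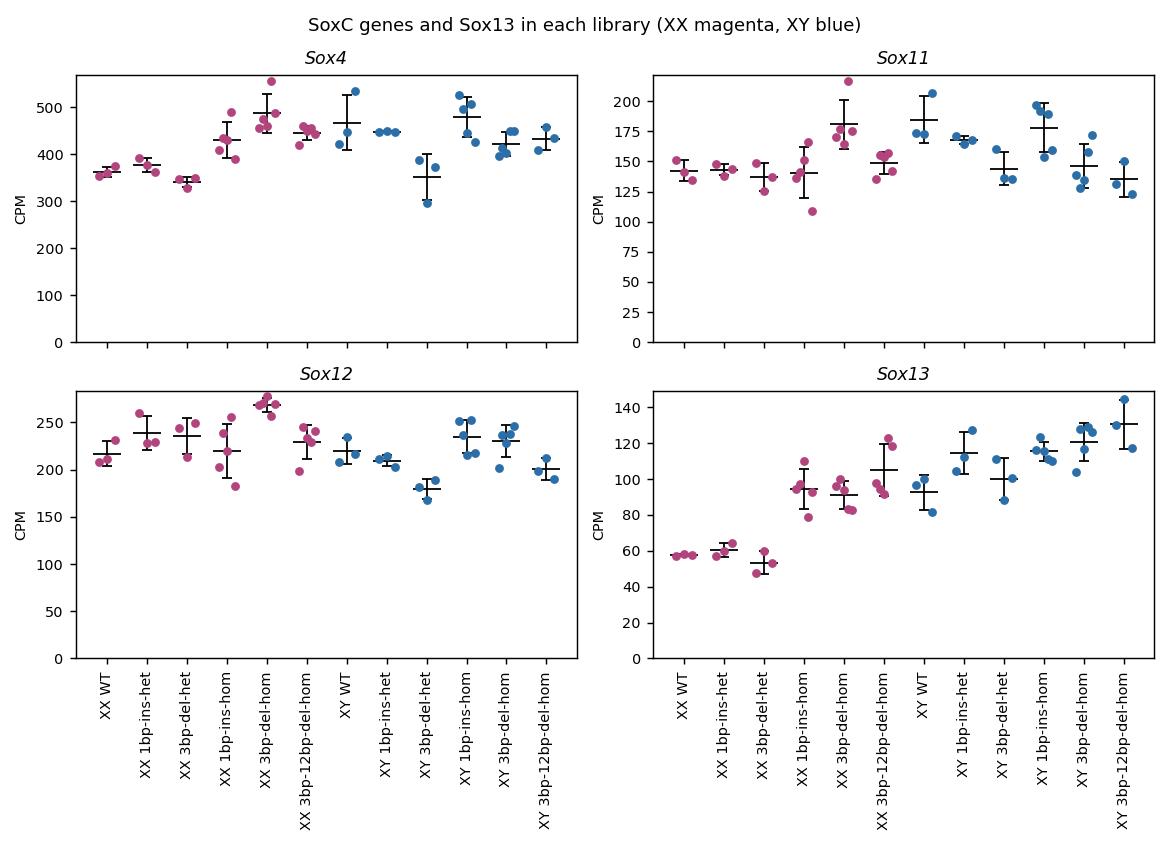
Sox4, Sox11, Sox12 and Sox13 in CPM in each of the 46 libraries, by group (points are libraries, XX magenta and XY blue, lines are group means and error bars SD). Sox13 in XX homozygotes spans 79.1 to 123 CPM, above the 47.5 to 64.5 CPM of the other XX libraries, while the SoxC genes differ less between groups.

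With these, the members called against XX wild type were 4 of 10 in 1bp-ins-hom (Sox8, Sox10, Sox4, Sox13), 7 of 10 in 3bp-del-hom (these with Sox11, Sox12 and Sox18) and 3 of 10 in 3bp-12bp-del-hom (Sox8, Sox4, Sox13), all higher. Of all genes 17.2%, 21.6% and 14.6% were called higher, and 32.3%, 44.8% and 25.6% called in either direction. The median log2 fold change of the members was 0.14, 0.36 and 0.08, against medians of 0.00, -0.03 and 0.00 over all genes. Without replicate 1 of XX wild type 3, 7 and 4 were called. Against XY wild type, 0, 2 and 0 members were called in XX 1bp-ins-hom, 3bp-del-hom and 3bp-12bp-del-hom, where 0.126%, 17.6% and 5.60% of all genes were, with 8.60% called higher in 3bp-del-hom. The 2 were Sox12, higher by 0.30 ± 0.07 (adjusted p = 0.0170), and Sox2, higher by 0.78 ± 0.17 (adjusted p = 0.0160). Leaving out replicate 1 of XY wild type ended both calls (adjusted p = 0.0794 and 0.067). Leaving out replicate 3 gave 5 called members, with Sox8 at -1.14 (adjusted p = 0.0161), Sox10 at -0.85 (adjusted p = 0.00413) and Sox7 at -0.41 (adjusted p = 0.0222). In the groups with 0, 2530 and 3252 genes had an unadjusted p under 0.05 in edgeR, and DESeq2 called 613 and 1769 genes, with 2 members in 3bp-12bp-del-hom.

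The SoxF genes, which encode factors of endothelial and arterial development, passed the test once against XX wild type and 3 times between XX and XY homozygotes. Of all genes 32.3%, 44.8% and 25.6% were called in XX 1bp-ins-hom, 3bp-del-hom and 3bp-12bp-del-hom against XX wild type. Between XX and XY homozygotes 9.94%, 31.8% and 10.4% were called in the same order. They lie on chr14:63943673-63950732 (Sox7, plus strand), chr1:4490931-4497354 (Sox17, minus strand) and chr2:181669836-181671640 (Sox18, minus strand). Per length their medians over the 46 libraries were 35.8 TPM for Sox18, 11.1 TPM for Sox17 and 10.5 TPM for Sox7. Sox7 was at 16.5 to 24.4 CPM over the 24 XX libraries, with a median of 20.6, and at 16.4 to 36.3 CPM over the 22 XY libraries, with a median of 27.3. Sox18 was at 24.2 to 44.2 CPM in XX (median 30.5) and 22.5 to 66.1 CPM in XY (median 40.3), and the sexes overlapped for both genes. Sox17 was at 6.83 to 12.2 CPM in XX and 8.03 to 21.5 CPM in XY. Against XX wild type, Sox7 had -0.15 ± 0.12, -0.18 ± 0.10 and -0.08 ± 0.10 in 1bp-ins-hom, 3bp-del-hom and 3bp-12bp-del-hom and Sox17 -0.07 ± 0.17, -0.00 ± 0.09 and -0.11 ± 0.13, none called. Sox18 was at 29.4, 30.3 and 25.5 CPM in XX wild type and 36.8, 40.6, 44.2, 36.6 and 43.5 CPM in XX 3bp-del-hom, without overlap, and rose by 0.48 ± 0.09 (adjusted p = 0.00143). It had 0.19 ± 0.12 and 0.08 ± 0.13 in the other two.

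Between homozygotes, Sox7 was lower in XX than XY in 1bp-ins-hom and 3bp-del-hom. The log2 fold changes were -0.53 ± 0.11 in 1bp-ins-hom (adjusted p = 0.0139) and -0.53 ± 0.12 in 3bp-del-hom (adjusted p = 0.00472). Its values were 19.5, 21.5, 19.5, 16.5 and 20.2 CPM in XX and 30.1, 23.3, 36.3, 25.1 and 27.1 CPM in XY 3bp-del-hom, without overlap. In 3bp-12bp-del-hom Sox7 averaged 20.4 CPM in XX and 22.0 CPM in XY and was not called. Sox18 was lower in XX 1bp-ins-hom, with -0.58 ± 0.16 (adjusted p = 0.0453), at 28.7, 35.4, 28.9, 30.1 and 39.3 CPM against 56.7, 66.1, 39.7, 42.9 and 39.3 CPM, groups that overlapped slightly at their edges. Of 17 endothelial genes, 1 rose and 8, 10 and 0 fell in XX 1bp-ins-hom, 3bp-del-hom and 3bp-12bp-del-hom against XX wild type. Of all genes 32.3%, 44.8% and 25.6% were called in either direction. The endothelial gene that rose in each was Efnb2, an arterial ephrin ligand (0.57, 0.55 and 0.71). Kdr, the receptor VEGFR2, fell by 0.51 and 0.63 in 1bp-ins-hom and 3bp-del-hom.

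Within groups the SoxF genes varied with the endothelial list. Over 46 libraries Sox7 had r = 0.61 and rho = 0.70 with the list mean (permutation test, adjusted p = 0.000203 for r; 0.58 without the 2 most extreme libraries). Sox17 had r = 0.68 and rho = 0.60 (permutation test, adjusted p = 6e-05; 0.59 without the 2). Sox18 had r = 0.41 and rho = 0.37 (permutation test, adjusted p = 0.0421), with 0.27 without replicates 2 and 5 of XY 1bp-ins-hom, so that the value over all libraries rests in part on them. Over the 15 XX homozygotes alone, which do not include them, it was r = 0.70 and rho = 0.63 (permutation test, adjusted p = 0.0143 for r; 0.57 without the 2 most extreme of these). By group means Sox7 was most like Plau (r = 0.952), Prnd (r = 0.933) and Map2 (r = 0.931), Sox17 most like Hoxd9 (r = 0.881), Depp1 (r = 0.845) and Ica1 (r = 0.842), and Sox18 most like Pef1 (r = 0.952), Tax1bp3 (r = 0.950) and Hmgn2-ps (r = 0.944).

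**Figure D5:**
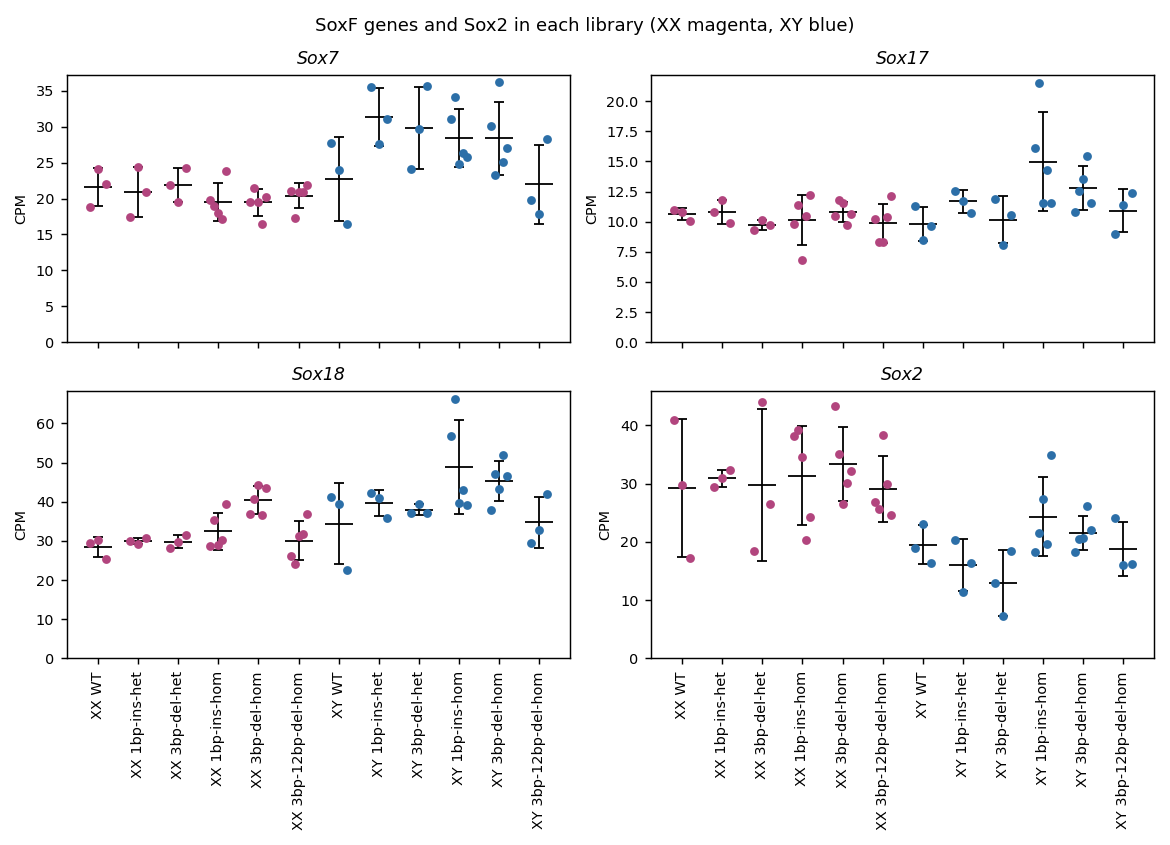
Sox7, Sox17, Sox18 and Sox2 in CPM in each of the 46 libraries, by group (points are libraries, XX magenta and XY blue, lines are group means and error bars SD). Sox7 spans 16.5 to 24.4 CPM in XX and 16.4 to 36.3 CPM in XY, and Sox2 spans 17.2 to 44.1 CPM in XX and 7.26 to 34.9 CPM in XY.

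Sox2, a pluripotency factor transcribed in primordial germ cells, was higher in XX than in XY gonads on average and was not called against XX wild type. It is a gene of 1 exon on chr3:34650405-34652461 (plus strand) inside Sox2ot, which had at most 20 counts per library. Its median over the 46 libraries was 18.6 TPM. It was at 17.2 to 44.1 CPM over the 24 XX libraries (median 30.0) and 7.26 to 34.9 CPM over the 22 XY libraries (median 19.3), with overlap. In wild type it was at 40.9, 29.8 and 17.2 CPM in XX and 19.0, 23.1 and 16.4 CPM in XY, a difference of -0.62 ± 0.31 in XY (adjusted p = 0.265). Against XX wild type the XX homozygotes had 0.09 ± 0.31, 0.16 ± 0.27 and -0.01 ± 0.27, none called. XX 3bp-del-hom had more Sox2 than XY 3bp-del-hom, by 0.65 ± 0.13 (adjusted p = 0.00281), with 43.2, 35.2, 26.5, 30.0 and 32.1 CPM against 18.3, 20.6, 20.6, 26.1 and 22.1 CPM and no overlap. The other differences were 0.38 ± 0.23 in 1bp-ins-hom and 0.64 ± 0.19 in 3bp-12bp-del-hom (adjusted p = 0.336 and 0.0620 in edgeR).

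Sox2 varied with germ cell genes between libraries. With the mean of 13 general germ cell genes it had r = 0.89 and rho = 0.88 over 46 libraries (permutation test, adjusted p = 4.5e-05 for r; 0.87 without the 2 most extreme libraries). By group means its nearest genes were Nanog (r = 0.993), Irf1 (r = 0.988) and Igfbpl1 (r = 0.986). Of the 13 genes, 5 were higher in XX than XY 3bp-del-hom, among them the germline regulators Tfap2c (0.77), Nanos3 (0.77) and Nanog (0.61). In this comparison 31.8% of all genes were called in either direction, and the share called higher alone is not given here. The count of 5 is therefore not read as a result about germ cell genes. The part of germ cell number in the Sox2 difference was not tested.

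The 10 Sox genes outside the members included others that rose in XX homozygotes. Sry had 0 counts in all 24 XX libraries, which allows up to 3 counts per library, and 0.167 to 2.01 CPM in XY. Of the 6 tested in XX homozygotes against XX wild type, 4 rose in each genotype and 0 fell. Of all genes 17.2%, 21.6% and 14.6% were called higher in 1bp-ins-hom, 3bp-del-hom and 3bp-12bp-del-hom. Sox9 was at 9.38 ± 2.31 CPM (SD, n = 3) in XX wild type and 171 ± 31.2 CPM (SD, n = 5), 181 ± 23.0 CPM (SD, n = 5) and 215 ± 40.8 CPM (SD, n = 5) in 1bp-ins-hom, 3bp-del-hom and 3bp-12bp-del-hom, and rose by 4.18 ± 0.22, 4.23 ± 0.18 and 4.51 ± 0.24. Sox3, a SoxB1 gene that can trigger testis formation when misexpressed in XX mice, rose by 1.71 ± 0.52, 1.58 ± 0.40 and 1.29 ± 0.40. Its level was low, at 0.186 to 0.436 CPM in XX wild type and 0.449 to 1.77 CPM in XX homozygotes. Sox15 rose by 0.95 ± 0.21, 1.06 ± 0.22 and 0.91 ± 0.24, and Sox6, a SoxD relative of Sox13, by 0.64 ± 0.11, 0.41 ± 0.09 and 0.87 ± 0.17. Among 12 genes of Sox partners, 9 were tested and 4, 6 and 3 rose, led by the nuclear receptor gene Nr5a1 (0.79, 0.77 and 0.88). Of 22 Sertoli genes 16, 17 and 17 rose in the same comparisons, with 1 lower in 3bp-del-hom.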

How the data were processed

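Whole gonads at E12.5 were sequenced after poly(A) selection from 140 ng of RNA, per the labels' protocols, and the submitters' processing notes name mm10. Aligner, quantifier, annotation and strand handling are not given in these sources, so reads of Sox8, Sox4 and Sox17 cannot be told apart from those of antisense genes that overlap them in GENCODE M21, or Sox2 from its host Sox2ot. The authors deposited estimated counts per gene, which were rounded, and TPM, scaled by the authors per transcript length. A column with no matching sample, 1 per file, was not used. No group held a double deposit (71 pairs, lowest chi-square per degree of freedom 13.3).

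Each comparison was fitted on its own groups with edgeR 4.0.16 in R 4.3.3 (TMM, filterByExpr, robust quasi-likelihood F test, Benjamini-Hochberg over all tested genes, called under 0.05). SE is the absolute log2 fold change over the square root of F. CPM is scaled by TMM over all libraries, and log2 CPM has a prior count of 2. Relations used deviations from group means in log2 CPM, shuffled within groups 100000 times. The SoxE ratios to Sox9 were compared by exact permutation. Marker genes outside the members were named when called, at most 3 per list and comparison by size of change, and for the descriptions of replicate 1 of XX wild type after its values were seen; the members' nearest genes are the top 3 by correlation of group means. Members, lists and comparisons were chosen with earlier results of these data known, and the XX against XY homozygote comparisons and the ratio after these data were seen. Alternatives were DESeq2 1.42.0, RLE scaling, no filter, all groups in 1 fit, replicate numbers as a block, removal of the length trend and leaving out each library. The edgeR fit alone was tested on simulated counts, for XY against XX wild type and XX 1bp-ins-hom against XX wild type. In the first, 58% of changes of 1 log2 unit were recovered, with 7 false calls among 151. In the second, 81% were recovered, with 16 false calls among 195. Depth is in estimated counts, and floors cover counting error only.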

Additional observations from a re-analysis of the deposited data

Results flagged for a closer look

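Of 50 sets of 5 libraries (10 members in 5 groups), 3 had a library far from the other four, where chance flags about 1 in 20. Sox10 in XY 3bp-del-hom was lowest in replicate 1, at 39.4 CPM, with the others at 49.4 to 51.8 CPM. Sox11 in XX 3bp-del-hom was highest in replicate 4, at 217 CPM, with the others at 165 to 177 CPM. Sox7 in XX 3bp-12bp-del-hom was lowest in replicate 2, at 17.3 CPM, with the others at 20.9 to 21.8 CPM.

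The effect of the mutation differed between the sexes by an interaction test for 3 members. The XX effect exceeded the XY effect by 2.65 for Sox8 in 1bp-ins-hom (adjusted p = 0.0462 in edgeR). In 3bp-del-hom it did so by 2.28 for Sox8 (adjusted p = 0.0155), 0.57 for Sox4 (adjusted p = 0.0157) and 0.67 for Sox11 (adjusted p = 0.0246). The fits share the wild-type libraries of both sexes.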

How the results depend on the processing

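Over 22 comparisons, the 10 members and Sox9 kept direction and call in 1379 fold changes under the other normalization, filter, tool, fit, block and length settings, while 56 gained and 16 lost a call. On leaving out a library 1981 kept both, 26 gained and 83 lost a call. The 1 reversal was Sox11 in XX 1bp-ins-hom against XX wild type, from -0.02 to 0.43 with the length trend removed. The cause of lost and gained calls was not tested, except that leaving out a library or using fewer libraries lowers the number of samples.

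The number of members called moved as follows. For XY against XX wild type (2 called) it was 4 with DESeq2, 5 with all groups in 1 fit and 4 with the length trend removed. Against XY wild type (0 called), XY 1bp-ins-hom gave 1 with all groups in 1 fit, XY 3bp-del-hom gave 1 with DESeq2 and 1 with all groups, XY 3bp-12bp-del-hom gave 1 and 2, and XY 3bp-del-het gave 1 with all groups. XX 1bp-ins-hom against XY wild type (0) gave 1 with all groups, and XX 3bp-12bp-del-hom (0) gave 2 with DESeq2 and 1 with all groups. The 1bp-ins-hom interaction (1) gave 0 without the filter and 2 with all groups. The 3bp-12bp-del-hom interaction (0) gave 3 with DESeq2, 2 with all groups and 2 with the length trend removed. XX against XY 1bp-ins-hom (4) gave 2 without the filter, and XX against XY 3bp-12bp-del-hom (0) gave 3 with DESeq2 and 2 with all groups.

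The replicate numbers did not pair the libraries: correlations of deviations ran from -0.319 to 0.390, in no comparison were all above 0.1, and in no comparison did every library correlate best with its own number. With the number as a replicate block, fitted on numbers present in all groups, XX 3bp-del-hom against XY wild type went from 2 to 1 called members, XX 3bp-12bp-del-hom against XY wild type from 0 to 1, the 1bp-ins-hom interaction from 1 to 0 and XX against XY 3bp-12bp-del-hom from 0 to 2.

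On leaving out each library in turn, the members called ran from 1 to 5 between the wild types (lowest without replicate 2 of XX, highest without replicate 3 of XY), 2 to 3 in XX 1bp-ins-hom, 5 to 7 in XX 3bp-del-hom and 3 to 4 in XX 3bp-12bp-del-hom against XX wild type, and 0 to 5 in XX 3bp-del-hom against XY wild type. They ran from 0 to 2, 0 to 4 and 0 to 3 in the interactions of 1bp-ins-hom, 3bp-del-hom and 3bp-12bp-del-hom, and from 1 to 5, 6 to 10 and 0 to 1 in XX against XY homozygotes in that order. The log2 ratio to Sox9, XX minus XY, ran for Sox8 from -0.76 to -0.33 in 1bp-ins-hom, -1.15 to -0.95 in 3bp-del-hom and -0.95 to -0.51 in 3bp-12bp-del-hom, and for Sox10 from -0.59 to -0.29, -1.09 to -0.93 and -0.91 to -0.53.

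Among relations, r within XX homozygotes alone was 0.38 for Sox8 and Sox9, 0.45 for Sox10 and Sox9, 0.70 for Sox18 and the endothelial list and 0.72 for Sox11 and the neuronal list. With list medians it was 0.47 for Sox10 and glia and 0.37 for Sox11 and the neuronal list, and 0.37 for the latter with log2(TPM + 1). Shares of SoxE from CPM moved beyond 1 SD in 9 of 12 groups for Sox8, 8 for Sox9 and 10 for Sox10, since CPM is not per length.

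Counts over all genes moved by more than 1.5 times (main, then the range over the settings other than leaving out a library): XY WT against XX WT 1738 (1088 to 5044), XX 1bp-ins-hom against XX WT 5186 (3452 to 6137), XX 3bp-12bp-del-hom against XX WT 4088 (1220 to 4748), XX 1bp-ins-het against XX WT 0 (0 to 83), XX 3bp-del-het against XX WT 1721 (447 to 2657), XY 1bp-ins-hom against XY WT 0 (0 to 802), XY 3bp-del-hom against XY WT 0 (0 to 653), XY 3bp-12bp-del-hom against XY WT 2 (0 to 210), XY 1bp-ins-het against XY WT 0 (0 to 28), XY 3bp-del-het against XY WT 0 (0 to 188), XX 1bp-ins-hom against XY WT 20 (1 to 1960), XX 3bp-del-hom against XY WT 2797 (605 to 4887), XX 3bp-12bp-del-hom against XY WT 886 (264 to 2289), sex interaction 1bp-ins-hom 171 (79 to 512), sex interaction 3bp-del-hom 631 (235 to 1954), sex interaction 3bp-12bp-del-hom 97 (11 to 437), XX 1bp-ins-hom against XY 1bp-ins-hom 1544 (1402 to 2502), XX 3bp-12bp-del-hom against XY 3bp-12bp-del-hom 1641 (1046 to 2502).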
